A study of Mus musculus with 12 samples.

Results

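Rab-named genes were followed by poly(A) RNA sequencing through the first 2 days in which mouse monocytes are cultured toward dendritic cells. The members were all autosomal protein-coding genes of the GENCODE annotation whose symbol is Rab with a number and an optional suffix. That gave 65 of the 47643 gene IDs in the count files, of which 47224 matched a symbol. Of the 65, 55 encode Rab GTPases, and 10 match the name pattern but encode proteins that act on or bind Rabs: Rab3gap1, Rab3gap2, Rab3ip, Rab3il1, Rab11fip1, Rab11fip2, Rab11fip3, Rab11fip4, Rab11fip5 and Rab5if. These 10 are described as a group of their own. Another 4 matches on chromosome X and 2 antisense transcripts fell outside the rule.

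The cells came from bone marrow of mice on a C57BL/6 background, wild type (WT) or lacking Nr4a3 (KO), a gene for an orphan nuclear receptor. They were sequenced as sorted monocytes, or after 1 or 2 days with the cytokines GM-CSF and IL-4 (day 1, day 2). The 6 groups of genotype and stage had 2 libraries each, from independent experiments per the labels, and the series asks what NR4A3 does in this differentiation. Neither the number of mice per library nor the form of the Nr4a3 deletion is given in the sources used here, and sorted monocytes are not a culture without cytokines.

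Rab GTPases are molecular switches that mark membranes. Exchange factors load them with GTP on a given membrane, where they recruit effectors that move, tether or fuse vesicles, and GTPase-activating proteins (GAPs), many with a TBC domain, switch them off. In phagocytes and dendritic cells they are known for steering phagosomes and endosomes toward lysosomes, for recycling and for carrying new or stored cargo to the surface.

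Levels are given in CPM, the usual depth-scaled count, on the TMM-adjusted library size, for replicates 1 and 2 in turn, and per kb of exon where genes are compared with each other. Log2 fold changes carry ± an SE worked back from edgeR's quasi-likelihood test, as the absolute change over the square root of its F statistic. P-values were adjusted over all 14034 genes tested. A gene is called when that adjusted p is under 0.05. Depth ran from 5905266 to 18447405 reads in genes, and the members took 0.389% to 0.481% of them. In bulk RNA, fewer cells of a type and less RNA per cell cannot be told apart.

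For Nr4a3 itself, the WT cultures of day 2 had 1287 and 1358 CPM and the KO cultures 39.0 and 19.3 CPM. The log2 fold change of -5.51 ± 1.36 was not called by edgeR (adjusted p = 0.389), but was with no low-count filter (3.01e-30) and without either KO day 1 library (0.0306 and 0.0308). At day 1, Nr4a3 had 76 reads (6.58 CPM) in the library labelled KO day 1 replicate 1 and none in KO replicate 2. The former scored 1.59 on the first principal component, against 38.4 to 46.7 for the other 3 day 1 libraries, so values from it are given under its label only. Among monocytes, WT replicate 2 also stood apart, with a ribosomal protein share of 8.30% (3.71% to 4.61% in its partners). Its neutrophil markers summed to 4335 CPM, against 1149 to 2101 CPM in those partners. File names carry dates that put both day 2 experiments apart from those of the monocytes and day 1, so day 2 and its experiments cannot be told apart. By Xist and Ddx3y, the day 2 replicate 1 experiment used female cells and the others male cells. Monocyte markers summed to 8200 to 10472 CPM in monocytes and to 750.3 to 2664 CPM at day 2. Dendritic cell markers went from 192.0 to 233.7 CPM up to 24820 to 30562 CPM, and defining markers of T and NK cells stayed near 0 (sums of at most 8.86 CPM). Not every marker followed its sum. The dendritic cell marker Flt3 had 13.6 and 21.8 CPM in WT monocytes, 0 and 0.979 at WT day 1 and 13.1 and 7.84 at WT day 2. The monocyte marker Cd14 had 58.5 and 34.5, 5.04 and 7.67, and 90.2 and 26.4 CPM.

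Sequences upstream of 6 members are shown first, because the results turn on these genes. Rab8b, Rab10 and Rab13 were higher at WT day 2, Rab27a and Rab31 were lower at WT day 1, and Rab3il1 had the smallest p of the members at WT day 1. Each line holds the 250 bases before a RefSeq start site in GRCm38.p6, 5′ to 3′ on the gene's strand. The last line is a window of 30 bases around an AAAGGTCA match, with the match in capitals.
Rab8b, chr9:66919706-66919955, minus strand: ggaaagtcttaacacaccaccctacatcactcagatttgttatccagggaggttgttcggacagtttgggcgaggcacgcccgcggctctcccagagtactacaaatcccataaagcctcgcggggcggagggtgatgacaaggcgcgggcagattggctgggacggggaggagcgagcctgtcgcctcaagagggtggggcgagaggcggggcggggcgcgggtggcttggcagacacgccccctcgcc
Rab10, chr12:3309970-3310219, minus strand: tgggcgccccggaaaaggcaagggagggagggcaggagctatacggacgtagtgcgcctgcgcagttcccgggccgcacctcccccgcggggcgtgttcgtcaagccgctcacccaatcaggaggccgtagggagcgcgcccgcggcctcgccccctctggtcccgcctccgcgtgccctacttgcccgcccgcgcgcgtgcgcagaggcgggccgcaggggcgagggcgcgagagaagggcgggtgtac
Rab13, chr3:90213465-90213714, plus strand: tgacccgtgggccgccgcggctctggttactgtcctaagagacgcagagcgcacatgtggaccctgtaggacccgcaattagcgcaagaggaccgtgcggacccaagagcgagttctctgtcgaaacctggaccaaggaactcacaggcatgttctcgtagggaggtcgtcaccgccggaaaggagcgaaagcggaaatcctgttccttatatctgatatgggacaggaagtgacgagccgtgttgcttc
Rab27a, chr9:73044560-73044809, plus strand: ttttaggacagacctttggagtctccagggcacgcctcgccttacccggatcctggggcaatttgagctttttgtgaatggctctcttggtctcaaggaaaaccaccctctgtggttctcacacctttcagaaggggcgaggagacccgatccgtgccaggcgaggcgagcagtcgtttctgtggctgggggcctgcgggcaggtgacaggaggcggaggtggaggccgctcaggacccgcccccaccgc
Rab31, chr17:65772753-65773002, minus strand: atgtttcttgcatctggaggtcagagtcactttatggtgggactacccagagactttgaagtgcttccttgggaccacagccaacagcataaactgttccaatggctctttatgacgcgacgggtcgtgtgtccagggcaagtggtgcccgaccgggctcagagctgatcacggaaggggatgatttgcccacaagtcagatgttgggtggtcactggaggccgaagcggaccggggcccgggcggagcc
Rab3il1, chr19:10001419-10001668, plus strand: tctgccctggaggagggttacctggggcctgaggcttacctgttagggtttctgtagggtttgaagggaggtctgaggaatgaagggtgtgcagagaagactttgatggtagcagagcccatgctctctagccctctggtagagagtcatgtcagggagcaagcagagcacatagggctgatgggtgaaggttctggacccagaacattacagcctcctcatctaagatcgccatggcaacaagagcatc
Rab3il1 window, chr19:10001668-10001697, plus strand: cacagagggccTGACCTTTgccaggcaggt

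Of the 65 members, 52 matched the RefSeq table, with 70 start sites. Members' upstream windows were richer in G and C than windows of all 32851 start sites, with medians of 61.2% and 52.4%. Among the lines above, Rab10 had the highest content (74.8%, with 34 CG dinucleotides) and the Rab3il1 line had 53.6% and 1 CG dinucleotide. Both strands were searched for 6 motifs. The element bound by NR4A receptors, AAAGGTCA, was in 1.43% of the members' windows and 1.34% of all windows. Its match among members lies 46 to 39 bases before the second Rab3il1 start site, and the capitals show it as TGACCTTT, the reverse complement. CACGTG, an E-box, was in 11.4% of members' windows against 6.02% of all, in Rab20, Rab21, Rab23, Rab27a, Rab3gap2, Rab3il1 and Rab5a. TGACGTCA, a cAMP response element, was in 4.29% against 1.55%. The shares were 2.86% against 6.75% for TGANTCA (AP-1), 7.14% against 7.02% for TTCNNNGAA (STAT5) and 2.86% against 5.85% for the STAT6 motif. These are matches of letters and show no binding. Gene counts do not tell which start site a cell used.

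Rab7, the Rab of late endosomes and phagosome maturation, had the highest level per kb (a mean of 216 CPM per kb over the 12 libraries). Rab5c, of early endosomes, followed at 125 CPM per kb and Rab1b, of traffic from the endoplasmic reticulum to the Golgi, at 106 CPM per kb. In all, 26 members reached 10 CPM per kb and 8 reached 50 CPM per kb, the other 5 of these being Rab8b (68.8), Rab2a (56.8), Rab35 (55.7), Rab1a (51.9) and Rab32 (51.2).

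The edgeR fit without a block called these 3 most abundant genes in no comparison. Rab7 stood at 395 and 518 CPM in WT monocytes, 516 and 600 at WT day 1 and 499 and 620 at WT day 2. KO cells had 389 and 450, then 660 and 551, then 632 and 949 CPM. The KO day 2 libraries were above both KO monocyte libraries, by 0.91 on the log2 scale (edgeR adjusted p = 0.0617, or 0.0228 with a block for the experiment). Rab5c had 309 and 333 CPM in WT monocytes, 221 and 286 at day 1 and 196 and 200 at day 2. Its KO values were 330 and 404, 310 and 264, and 214 and 229 CPM. Both day 2 groups lay below the monocytes of their genotype. The WT difference of -0.69 missed the threshold (edgeR adjusted p = 0.0735, or 0.0447 with the block and 0.0201 with DESeq2), as did the KO difference of -0.73 (edgeR adjusted p = 0.0732, or 0.0440 with the block). Rab1b kept within 193 to 296 CPM in all 12 libraries, with 224 and 274 in WT monocytes, 262 and 234 at WT day 1 and 200 and 213 at WT day 2. In KO cells Rab1b had 236 and 287, 296 and 246, and 193 and 232 CPM.

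At the other end, 9 GTPases had 0 to 35 reads over all 12 libraries and were not tested. Rab3b and Rab3c, of neuronal and endocrine secretion, had 0 reads. Rab17 and Rab25, known from epithelial cells, had 1 read each. The other 5 were Rab15, Rab26, Rab27b, Rab40b and Rab42. That left 56 members tested, 46 of them GTPases.

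**Figure D1:**
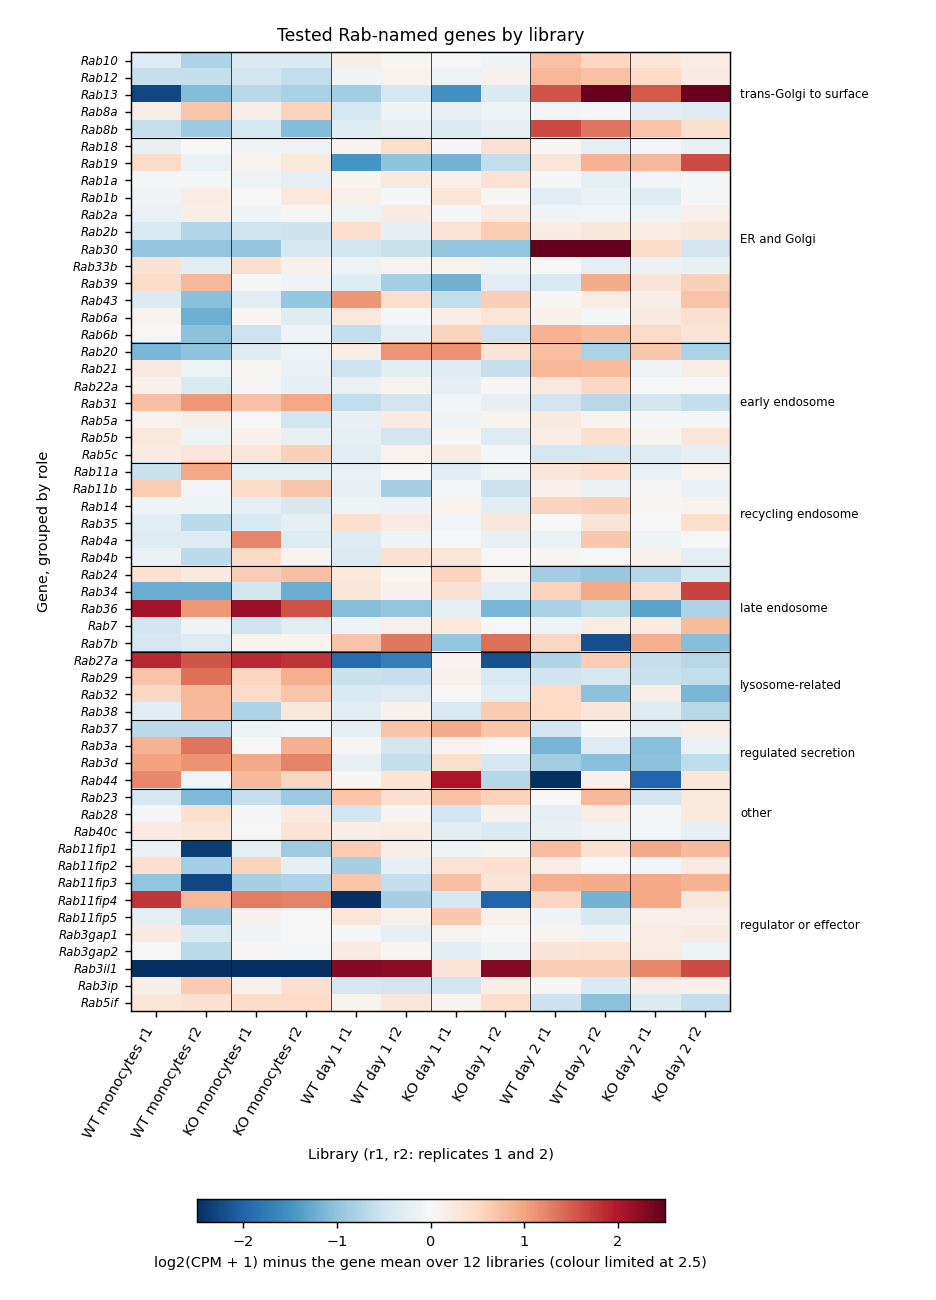
Each row is 1 of the 56 tested members, grouped by role, and each column 1 library; the colour is log2(CPM + 1) minus the gene's mean over the 12 libraries. Colours stop at 2.5 in either direction. Rab8b, Rab10, Rab12 and Rab13 turn red at day 2 and Rab3il1 at day 1, while Rab27a, Rab29, Rab31, Rab3d and Rab36 are red in monocytes; the library labelled KO day 1 replicate 1 differs from its partners for Rab44, Rab27a and Rab3il1.

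Culture in WT cells was read first against monocytes. At day 1, 3 members were higher and 6 lower than in monocytes of 56 tested, beside 21.5% of all genes called (11.4% higher and 10.1% lower). At day 2, 8 were higher and 7 lower, beside 22.6% of all genes called (12.7% higher and 9.89% lower). The members' shares, 16.1% and 26.8%, were near the background. The members' median change was -0.05 at day 1 and 0.16 at day 2 on the log2 scale, against 0.06 and 0.09 over all genes. A block for the experiment raised the calls over all 14034 genes as well. At day 1 these went from 1598 higher and 1424 lower to 2131 and 1861. At day 2 they went from 1778 and 1388 to 2321 and 1955. With the block the members' counts were 10 higher and 9 lower at day 1, and 12 higher and 9 lower at day 2. Leaving out 1 library at a time gave 5 to 17 called at day 1 and 9 to 20 at day 2. The day 1 count was 5 without either WT day 1 library and 17 without WT monocytes replicate 1, and the day 2 count was 9 without WT day 2 replicate 2.

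By count of calls at WT day 2, the role group with the most rises was that of trans-Golgi traffic to the surface. The group covers cargo from the trans-Golgi network and recycling compartments to the plasma membrane, and it held 4 of the 8 members called higher. These were Rab8b, Rab10, Rab12 and Rab13, of 5 members in the group, beside 12.7% of all genes higher. The median of the 5 was 1.41 on the log2 scale. In KO cells 3 of the 5 were higher (Rab8b, Rab12 and Rab13), with a median of 0.93, beside 9.95% of all genes higher at KO day 2. Without the block none of the 5 was called at day 1 in either genotype. Over all genes, 21.5% were called at WT day 1 and 13.8% at KO day 1. The role groups were drawn up with earlier results of these data known, so their counts are a description. Rab12 is also linked to recycling endosomes, and its place here adds to this group's count.

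Rab8b, a regulator of surface delivery and membrane protrusions, had 183 and 145 CPM in WT monocytes, 221 and 231 at WT day 1 and 853 and 691 at WT day 2. KO cells had 200 and 128, 215 and 234, and 445 and 364 CPM. All 4 day 2 libraries lay above all 8 others, and both WT values above both KO values. The WT rise was 2.24 ± 0.31 (edgeR adjusted p = 0.000705) from monocytes and 1.77 ± 0.30 (edgeR adjusted p = 0.00827) from day 1, the latter lost without either WT day 1 library or WT day 2 replicate 1 (highest adjusted p = 0.0805). The KO rise from monocytes was 1.30 ± 0.30 (edgeR adjusted p = 0.0131), a call lost without KO monocytes replicate 2 or KO day 2 replicate 1 (highest adjusted p = 0.145).

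Rab13, known for surface delivery and junctions, was nearly silent before day 2, at 0.307 and 2.00 CPM in WT monocytes and 2.48 and 3.75 at WT day 1. It reached 17.9 and 34.3 CPM at WT day 2. Its KO values were 2.93 and 2.62, 1.21 and 3.94, and 17.3 and 33.7 CPM, so the day 2 libraries of the same experiment matched across genotypes. The rise to day 2 was 4.54 ± 0.85 in WT (edgeR adjusted p = 0.00387) and 3.20 ± 0.77 in KO cells (edgeR adjusted p = 0.0170). The KO call was lost without either KO monocyte library or KO day 2 replicate 2 (highest adjusted p = 0.128). Between the KO days its change of 3.28 was called with the block alone (edgeR adjusted p = 0.0583, or 0.00750 with the block).

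Rab10, which acts in secretion and in the supply of Toll-like receptor 4 to the surface, went from 103 and 75.6 CPM in WT monocytes to 143 and 132 and then 216 and 185. Its KO values were 100 and 101, 129 and 121, and 160 and 147 CPM. The 3 stages did not overlap in either genotype. The WT rise to day 2 was 1.17 ± 0.25 (edgeR adjusted p = 0.00734), lost without WT day 2 replicate 1 (adjusted p = 0.0672). Rab12 was placed in the trans-Golgi group although it is known to link recycling endosomes to lysosomal degradation. It moved from 16.4 and 16.1 CPM to 23.4 and 26.6 and then 44.9 and 41.7 in WT. KO cells had 17.8 and 15.9, 22.5 and 26.7, and 35.7 and 28.8 CPM of it, again without overlap between stages. Its day 2 rise was 1.41 ± 0.26 in WT (edgeR adjusted p = 0.00334) and 0.93 ± 0.25 in KO cells (edgeR adjusted p = 0.0291). The KO call was lost without any of the KO monocyte, KO day 2 or WT day 2 libraries (highest adjusted p = 0.197).

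The fifth gene, Rab8a, the close paralog of Rab8b, was not higher. It had 210 and 302 CPM in WT monocytes, 138 and 173 at day 1 and 179 and 183 at day 2, and 149 to 276 CPM in KO cells. With the block it was called lower at WT day 1 (-0.71 ± 0.22, edgeR adjusted p = 0.0345) and at KO day 2 (-0.67 ± 0.22, edgeR adjusted p = 0.0494). As a share of Rab8a and Rab8b together per kb, Rab8b made up 39.2% ± 9.90 in WT monocytes (SD, n = 2), 59.1% ± 3.06 at day 1 and 80.6% ± 2.58 at day 2. In KO cells the share was 40.2% ± 12.3, 56.9% ± 0.82 and 72.5% ± 2.48. These shares are given as a description, and no test was run on them.

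**Figure D2:**
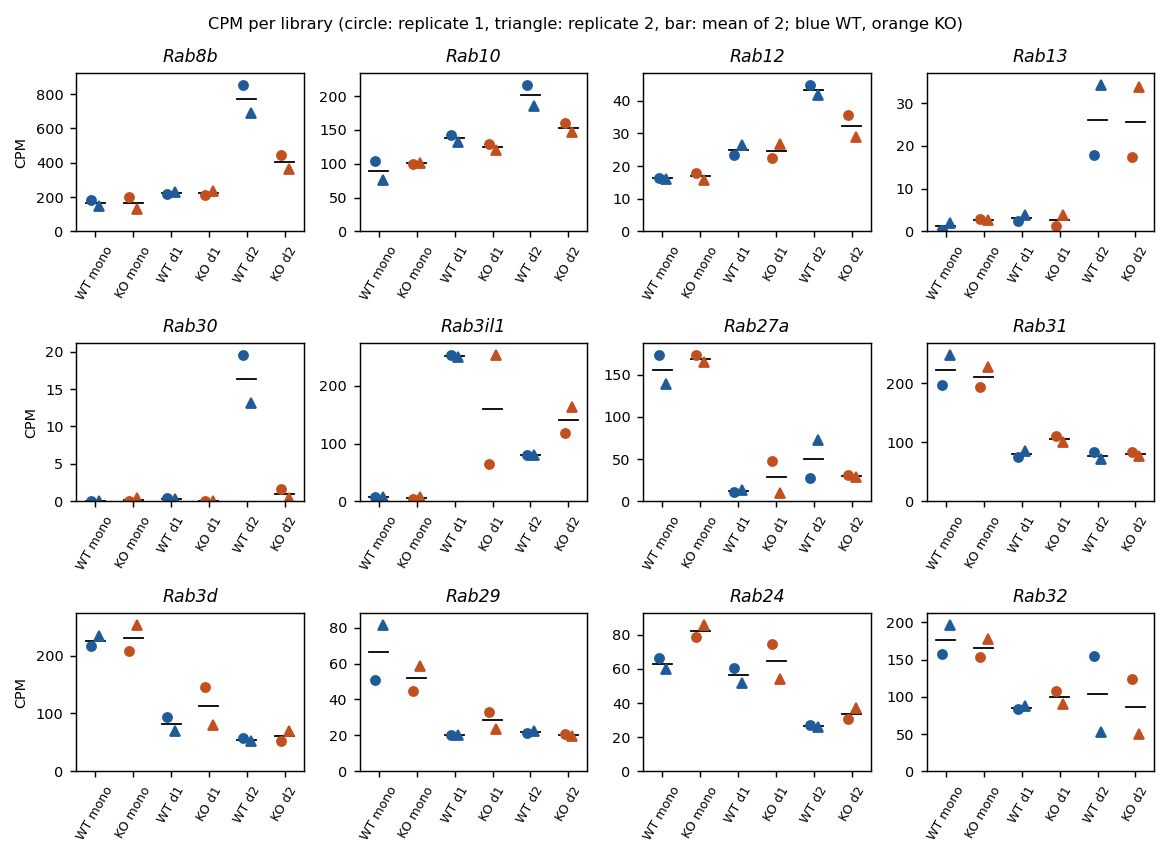
CPM of 12 members in each library, by group (circles replicate 1, triangles replicate 2, bars the mean of 2; WT blue, KO orange; linear axes from 0). Rab8b, Rab10, Rab12 and Rab13 are highest at day 2, Rab30 is high in WT day 2 at 19.6 and 13.2 CPM, and Rab27a, Rab31, Rab3d and Rab29 are highest in monocytes.

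Among the Rabs of the endoplasmic reticulum and Golgi, 11 of 12 were not called at WT day 1 and 11 of 12 not at WT day 2. Over all genes 21.5% and 22.6% were called. The group's medians were 0.11 and 0.23. The called gene of day 2 was Rab30, a Golgi Rab. It had 0 reads in both WT monocyte libraries, 0.413 and 0.326 CPM at WT day 1 and 19.6 and 13.2 CPM at WT day 2. Its KO values were 0 and 0.425, 0 and 0, and 1.67 and 0.409 CPM. The 274 reads of the WT day 2 libraries put Rab30 at least 123-fold above WT monocytes, with 3 reads over the monocyte group as the floor (edgeR adjusted p = 0.00477). Rab30 passed the low-count filter only through these WT day 2 libraries, the group in which it is high, so its calls are given as a description. It was also higher at WT day 2 than at WT day 1, by 5.43 ± 1.26 (edgeR adjusted p = 0.0364), lost without any of those 4 libraries (highest adjusted p = 0.202).

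Rab19, linked to Golgi and ciliary traffic, had the opposite course at day 1. Its WT values were 8.74 and 5.17 CPM in monocytes, 1.49 and 2.45 at day 1 and 7.59 and 11.6 at day 2. KO cells had 6.43 and 7.37, 2.08 and 3.56, and 11.2 and 20.5 CPM. All 4 day 1 libraries lay below the other 8. The WT fall was 1.82 ± 0.53 at day 1, a log2 fold change of -1.82 (edgeR adjusted p = 0.0344), lost in 7 of 12 fits that left out a library (highest adjusted p = 0.190). The rise from day 1 to day 2 was 2.28 ± 0.54 in WT (edgeR adjusted p = 0.0296, lost in 5 of 12 such fits) and 2.48 ± 0.53 in KO cells (edgeR adjusted p = 0.0412, lost in 10 of 12).

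The other 10 of this group were not called in any culture comparison without the block. Rab1a and Rab2a, which act between the endoplasmic reticulum and the Golgi, kept within 165 to 251 CPM and 107 to 139 CPM. Rab6a, of Golgi retrograde traffic, held 80.8 to 133 CPM in 11 libraries and 42.6 CPM in WT monocytes replicate 2. Rab18, of lipid droplets and the endoplasmic reticulum, ran from 60.9 to 99.1 CPM and Rab33b, of Golgi traffic and autophagy, from 12.97 to 21.4. Rab43, a Golgi Rab known for antigen cross-presentation in dendritic cells, ran from 5.80 to 29.4 CPM. Its WT values were 10.0 and 5.80 in monocytes and 29.4 and 18.0 at day 1 (edgeR adjusted p = 0.0513, or 0.0390 with the block). Rab2b stayed at 3.27 to 9.96 CPM, Rab39 at 0.866 to 7.21 and Rab6b at 0 to 2.76.

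Early endosome Rabs gave 1 call of 7 at each day, a fall of Rab31. Over all genes 10.1% were lower at WT day 1 and 9.89% at WT day 2, so these counts were near the background. Rab31, which sorts receptors at the trans-Golgi network and early endosomes, had 197 and 248 CPM in WT monocytes, 75.6 and 84.7 at day 1 and 82.9 and 71.4 at day 2. The KO libraries had 194 and 228, 111 and 101, and 83.9 and 76.3 CPM. Every monocyte library lay above every cultured one. The WT log2 fold changes were -1.47 ± 0.25 at day 1 (edgeR adjusted p = 0.00267) and -1.53 ± 0.25 at day 2 (edgeR adjusted p = 0.00180). KO cells gave -0.995 ± 0.24 (edgeR adjusted p = 0.0227) and -1.40 ± 0.25 (edgeR adjusted p = 0.00354). The KO day 1 call was lost without either KO monocyte library or KO day 1 replicate 2 (highest adjusted p = 0.156).

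Rab22a, the paralog of Rab31, held 54.1 to 100 CPM with no call, so Rab31's share of the pair per kb went from 86.4% ± 4.67 in WT monocytes to 69.0% ± 1.10 and 61.3% ± 5.53 (SD, n = 2). KO shares were 86.1% ± 2.24, 75.2% ± 3.36 and 68.5% ± 1.60. Among the 3 Rab5 paralogs, Rab5c made up 77.1% ± 3.15 per kb in WT monocytes and 64.9% ± 0.81 at WT day 2, and 81.1% ± 4.65 and 69.4% ± 0.81 in KO cells. Rab5a ran from 44.5 to 73.3 CPM and Rab5b from 88.0 to 160 CPM, neither called. Rab20, of phagosome maturation, stayed at 1.07 to 9.005 CPM, and was called higher at WT day 1 with the block alone (2.44 ± 0.65, edgeR adjusted p = 0.0190).

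Rab21, which acts on integrin endocytosis, had 83.7 and 65.5 CPM in WT monocytes, 49.6 and 58.3 at WT day 1 and 129 and 125 at WT day 2. KO cells had 73.9 and 63.7, 57.2 and 47.5, and 66.7 and 81.9 CPM. It was called between the WT days, at 1.23 ± 0.25 (edgeR adjusted p = 0.0186), lost without any of those 4 libraries (highest adjusted p = 0.138). Against WT monocytes the day 2 difference was 0.76 (edgeR adjusted p = 0.0508, or 0.0290 with the block).

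**Figure D3:**
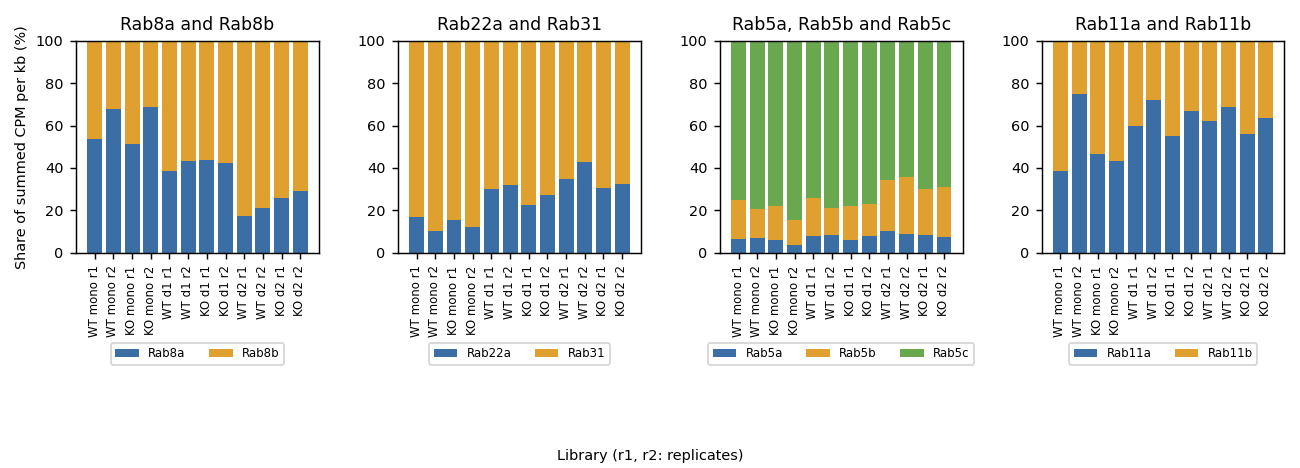
Share of each paralog in the summed CPM per kb of its pair or trio, in each of the 12 libraries. Rab8b takes over from Rab8a by WT day 2 (80.6%), Rab22a gains against Rab31, and Rab5c stays the main Rab5; Rab11a is high in WT monocytes replicate 2, which stood apart.

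The recycling endosome group did not include Rab12, which was counted with the trans-Golgi group. Without the block, 21.5% of all genes were called at WT day 1 and 22.6% at WT day 2. None of the 6 tested recycling endosome Rabs was called in any comparison without the block, and 3 of them were with it. Rab14, of endosome to Golgi traffic, was the most abundant in CPM, with 227 and 226 in WT monocytes, 221 and 219 at WT day 1 and 356 and 368 at WT day 2. Its KO values were 207 and 183, 258 and 201, and 251 and 257 CPM. The 2 WT day 2 libraries lay above the other 10. The WT difference from monocytes was 0.68 (edgeR adjusted p = 0.0662, or 0.0379 with the block), and that between the WT days 0.72 (edgeR adjusted p = 0.0934, or 0.0468 with the block). Rab11a, of slow recycling, had 127 CPM in WT monocytes replicate 2 and 43.8 to 87.5 CPM in the other 11 libraries. Rab11b ran from 50.8 to 147 CPM, Rab35, of fast recycling, from 95.2 to 208, Rab4b from 1.48 to 4.50 and Rab4a from 0 to 1.93. With the block Rab35 was higher at WT day 1 (0.77 ± 0.24, edgeR adjusted p = 0.0374). Rab11b was then lower at WT day 1 (-0.80 ± 0.26, edgeR adjusted p = 0.0424) and KO day 1 (-0.91 ± 0.26, edgeR adjusted p = 0.0324).

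Late endosome and lysosome Rabs moved in both directions. Rab24, linked to autophagy, had 66.3 and 59.8 CPM in WT monocytes, 60.7 and 51.9 at day 1 and 27.3 and 25.8 at day 2. KO cells had 78.6 and 85.7, 74.7 and 54.1, and 30.3 and 36.9 CPM. The 4 day 2 libraries lay below the other 8. It fell by 1.25 ± 0.26 in WT at day 2 (edgeR adjusted p = 0.00660), a call lost without either WT day 2 library (highest adjusted p = 0.0718). In KO cells it fell by 1.29 ± 0.26 (edgeR adjusted p = 0.00691), lost without KO monocytes replicate 2 or KO day 2 replicate 1 (highest adjusted p = 0.0873). Between the KO days its change of -0.93 was called with the block alone (edgeR adjusted p = 0.0947, or 0.0429 with the block).

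Rab36, of late endosome positioning, fell from 11.5 and 5.27 CPM to 0.413 and 0.490 at WT day 1, a log2 fold change of -4.19 ± 0.92 (edgeR adjusted p = 0.0102). The call was lost without either WT day 1 library (highest adjusted p = 0.0748). At WT day 2 it stood at 0.690 and 0.885 CPM. KO values were 12.2 and 7.87, then 1.56 and 0.328, then 0.167 and 0.736 CPM. The later calls were lost in 3 of 12 fits that left out a library for WT day 2 and for KO day 1, and in 2 for KO day 2. Rab34, of lysosome positioning, had 0 reads in WT monocytes and 10 and 0 reads in the KO monocyte libraries. It reached 1.90 and 1.55 CPM at WT day 1 and 2.53 and 3.54 at WT day 2, at least 12.96-fold and 22.8-fold above a floor of 3 reads over the monocyte group. These calls (edgeR adjusted p = 0.0324 and 0.0197) were lost without any of the 4 WT libraries compared at day 1, and without WT monocytes replicate 2 or WT day 2 replicate 2 at day 2.

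Rabs of lysosome-related organelles belong to compartments that release stored granules and melanosomes. Of 4 tested, 2 fell at WT day 1 and 1 at WT day 2, beside 10.1% and 9.89% of all genes lower. The medians were -1.37 and -1.18, and the others were not called. Rab27a, which docks secretory lysosomes and exosomes at the membrane, had 173 and 139 CPM in WT monocytes, 11.6 and 13.5 at WT day 1 and 27.1 and 72.2 at WT day 2. KO cells had 173 and 165, 48.4 and 9.41, and 30.8 and 28.3 CPM. All 4 monocyte libraries were above all 8 cultured ones, and 48.4 came from the library labelled KO day 1 replicate 1. The log2 fold change at day 1 was -3.63 ± 0.68 in WT (edgeR adjusted p = 0.00471) and -2.55 ± 0.65 in KO cells (edgeR adjusted p = 0.0266). At day 2 it was -1.65 in WT, not called, and -2.52 ± 0.65 in KO cells (edgeR adjusted p = 0.0232). Both KO calls were lost without some KO libraries (highest adjusted p = 0.102 at day 1 and 0.125 at day 2).

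Rab29, of lysosomal and trans-Golgi traffic, had 50.9 and 81.5 CPM in WT monocytes, 20.5 and 20.3 at day 1 and 21.5 and 22.4 at day 2. The KO libraries had 44.9 and 58.8, 33.2 and 23.4, and 20.5 and 19.9 CPM. Here too no monocyte library overlapped a cultured one. The WT log2 fold changes were -1.70 ± 0.31 (edgeR adjusted p = 0.00409) and -1.59 ± 0.31 (edgeR adjusted p = 0.00468), and the KO day 2 one -1.36 ± 0.31 (edgeR adjusted p = 0.0125, lost in 3 of 12 fits that left out a library). Rab38, which acts with Rab32 in melanosome biogenesis, stayed at 0.571 to 3.69 CPM.

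Rab32, of lysosome-related organelles and phagosomes, was chosen for description after its values were seen. It had 157 and 197 CPM in WT monocytes, 83.7 and 87.2 at WT day 1 and 155 and 53.4 at WT day 2. KO cells had 153 and 178, 108 and 90.5, and 123 and 49.5 CPM. In each genotype the day 2 libraries differed between the 2 experiments more than day 1 differed from monocytes. It was not called at WT day 1 (log2 fold change of -1.05, edgeR adjusted p = 0.155), but with the block the same change passed (edgeR adjusted p = 0.00741). With the block it also passed at WT day 2 (-0.95 ± 0.23, edgeR adjusted p = 0.0106), KO day 1 (-0.73 ± 0.23, edgeR adjusted p = 0.0450) and KO day 2 (-1.08 ± 0.23, edgeR adjusted p = 0.00694).

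Regulated secretion was represented mainly by Rab3d, a secretory granule Rab of myeloid and exocrine cells, which made up 94.3% to 96.6% of the Rab3 paralogs per kb in the group means. Rab3d had 216 and 234 CPM in WT monocytes, 93.8 and 69.9 at day 1 and 58.3 and 51.6 at day 2. KO cells had 207 and 253, 146 and 79.4, and 51.9 and 68.9 CPM. Monocyte libraries lay above all cultured ones. The WT log2 fold changes were -1.46 ± 0.33 at day 1 (edgeR adjusted p = 0.0112) and -2.03 ± 0.33 at day 2 (edgeR adjusted p = 0.00194). The day 1 call was lost without WT day 1 replicate 2 (adjusted p = 0.0978). The KO log2 fold change at day 2 was -1.93 ± 0.33 (edgeR adjusted p = 0.00326). At KO day 1 it was -1.03 (edgeR adjusted p = 0.0585, or 0.0307 with the block).

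Rab3a, its neuronal paralog, went from 5.98 and 8.54 CPM in WT monocytes to 0.690 and 2.02 at WT day 2, a log2 fold change of -2.42 ± 0.79 (edgeR adjusted p = 0.0495). That call was lost in 11 of 12 fits that left out a library and with RLE normalization (adjusted p = 0.0522). Rab37, of mast cell and macrophage secretion, had 0 reads in WT monocytes, 0.330 and 1.55 CPM at WT day 1 and 0.115 and 0.506 at WT day 2. KO cells had 0.429 and 0.496, 1.99 and 1.53, and 0.333 and 0.736 CPM. The WT day 1 value was at least 7.06-fold above the floor (edgeR adjusted p = 0.0375), and this call was lost in all 12 fits that left out a library (highest adjusted p = 0.158).

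Neutrophil markers are given beside these granule-related Rabs. The 10 neutrophil markers summed to 1149 to 4335 CPM in monocytes, 898.5 to 2142 CPM at day 1 and 514.1 to 1804 CPM at day 2, and of the defining ones Ly6g was at 0 to 2.11 CPM throughout. Their part in these results was not tested. Single markers of the list went both ways. Elane and Mpo stood at 112.5 to 188.4 CPM in monocytes and at no more than 4.93 CPM in WT cultures. Cxcr2 rose from 1.15 and 1.48 CPM in WT monocytes to 217 and 189 at WT day 1 and 158 and 315 at WT day 2. Ltf went from 43.7 and 96.9 CPM in WT monocytes to 153 and 161 at WT day 1, then 24.4 and 139 at WT day 2. In WT monocytes replicate 2, where the neutrophil sum was 4335 CPM, Rab27a stood at 139 CPM, below the other 3 monocyte libraries, and Rab3d at 234 CPM, within their range of 207 to 253. That library also stood apart in its ribosomal protein share (8.30%), and no link between the sum and these Rabs was tested. B cell markers also fell, from 401.9 to 527.7 CPM to 12.8 to 36.8 CPM; in monocytes Ighm made up 392.3 to 511.6 CPM of it.

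Of the 10 regulators and effectors among the members, Rab3il1 changed most. Rab3il1 encodes an exchange factor for Rab8 and a binder of Rab3. Its WT values were 7.203 and 7.07 CPM in monocytes, 253 and 249 at day 1 and 79.6 and 79.4 at day 2. KO cells had 4.50 and 8.01, 65.2 and 253, and 119 and 162 CPM. All cultured libraries lay far above all monocyte libraries, with 65.2 in the library labelled KO day 1 replicate 1. The rise was 5.13 ± 0.60 at WT day 1 (edgeR adjusted p = 0.000505) and 3.48 ± 0.56 at WT day 2 (edgeR adjusted p = 0.00181). In KO cells it was 4.67 ± 0.59 (edgeR adjusted p = 0.000982) and 4.49 ± 0.59 (edgeR adjusted p = 0.000726). Between the WT days the difference of -1.66 was not called (edgeR adjusted p = 0.0743, or 0.0272 with the block). Rab3ip, the related Rab8 exchange factor known as Rabin8, stayed at 6.15 to 14.7 CPM with no call.

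Rab5if, a Rab5-interacting factor, had 161 and 168 CPM in WT monocytes, 137 and 159 at WT day 1 and 89.2 and 63.2 at WT day 2. KO cells had 178 and 182, 136 and 177, and 102 and 85.3 CPM. The day 2 libraries lay below the other 8. It fell by 1.11 ± 0.27 in WT (edgeR adjusted p = 0.0138), lost without WT day 2 replicate 2 (adjusted p = 0.154), and by 0.94 ± 0.27 in KO cells (edgeR adjusted p = 0.0337), lost in 6 of 12 such fits. Between the WT days its change of -0.96 was called with the block alone (edgeR adjusted p = 0.0519, or 0.0139 with the block). Among the Rab11 effectors, Rab11fip3 went from 1.46 and 0 CPM in WT monocytes to 8.05 and 8.22 at WT day 2, a rise of 3.39 ± 1.03 (edgeR adjusted p = 0.0385). That call was lost in 7 of 12 such fits, and without both libraries that stood apart the rise was 2.42 (adjusted p = 0.0566). Rab11fip1 had 12.8 CPM in WT monocytes replicate 2 and 37.5 to 136 CPM elsewhere. Rab11fip2 ran from 3.06 to 9.71 CPM, Rab11fip4 from 0 to 18.7 and Rab11fip5 from 33.0 to 98.6. With the block alone, 3 of these effectors were higher at WT day 1: Rab11fip1 (1.49, edgeR adjusted p = 0.0465), Rab11fip3 (2.68, edgeR adjusted p = 0.0453) and Rab11fip5 (0.78, edgeR adjusted p = 0.0339). Rab11fip1 was then also higher at WT day 2 (1.69, edgeR adjusted p = 0.0283). The 2 subunits of the Rab3 GAP, which is also an exchange factor for Rab18, were called by edgeR in no comparison. Rab3gap1 ran from 38.8 to 58.8 CPM and Rab3gap2 from 37.0 to 76.6 CPM. The remaining GTPases of other roles had no call without the block: Rab23, of ciliary signalling, at 1.79 to 9.61 CPM, Rab28 at 14.4 to 27.5 and Rab40c, an adaptor of a ubiquitin ligase, at 13.6 to 22.7. With the block Rab23 was higher at WT day 1 (1.60 ± 0.47, edgeR adjusted p = 0.0291), WT day 2 (1.43 ± 0.48, edgeR adjusted p = 0.0440) and KO day 1 (1.72 ± 0.47, edgeR adjusted p = 0.0263).

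The change over culture was compared between genotypes next. KO day 1 gave 1 member higher and 3 lower than KO monocytes, beside 13.8% of all genes called (7.7% higher and 6.14% lower), and KO day 2 gave 4 higher and 7 lower, beside 17.5% (9.95% higher and 7.57% lower). Over all genes the block raised the calls from 1081 higher and 861 lower to 1576 and 1419 at KO day 1. At KO day 2 they went from 1396 and 1063 to 1890 and 1618. With the block the members' counts were 2 and 6 at day 1 and 5 and 10 at day 2. Without both libraries that stood apart, 7 were called at KO day 1. Leaving out 1 library gave 1 to 7 and 4 to 14 called, with 1 at day 1 without either KO monocyte library or KO day 1 replicate 2. At day 1, 4 members were called in both genotypes (Rab27a, Rab31, Rab36 and Rab3il1), 44.4% of the WT calls and 100% of the KO calls. At day 2, 10 were called in both, 66.7% and 90.9%: Rab12, Rab13, Rab24, Rab29, Rab31, Rab36, Rab3d, Rab3il1, Rab5if and Rab8b. Every shared call had the same direction. The overlap over all genes was not computed, so these shares show nothing particular to the members. Between day 1 and day 2, 5 were higher and 1 lower in WT beside 8.19% of all genes (4.67% higher and 3.51% lower), and 1 was higher in KO cells beside 2.05% (1.5% higher and 0.542% lower). Among the WT calls were Rab13, at 3.06 ± 0.77 (edgeR adjusted p = 0.0370), and Rab24, at -1.09 ± 0.26 (edgeR adjusted p = 0.0301), lost in 6 and 8 of 12 fits that left out a library. The WT count was 0 without WT day 2 replicate 1 or either WT day 1 library, 1 without WT day 2 replicate 2, 3 without KO monocytes replicate 2 and 11 without both libraries that stood apart.

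**Figure D4:**
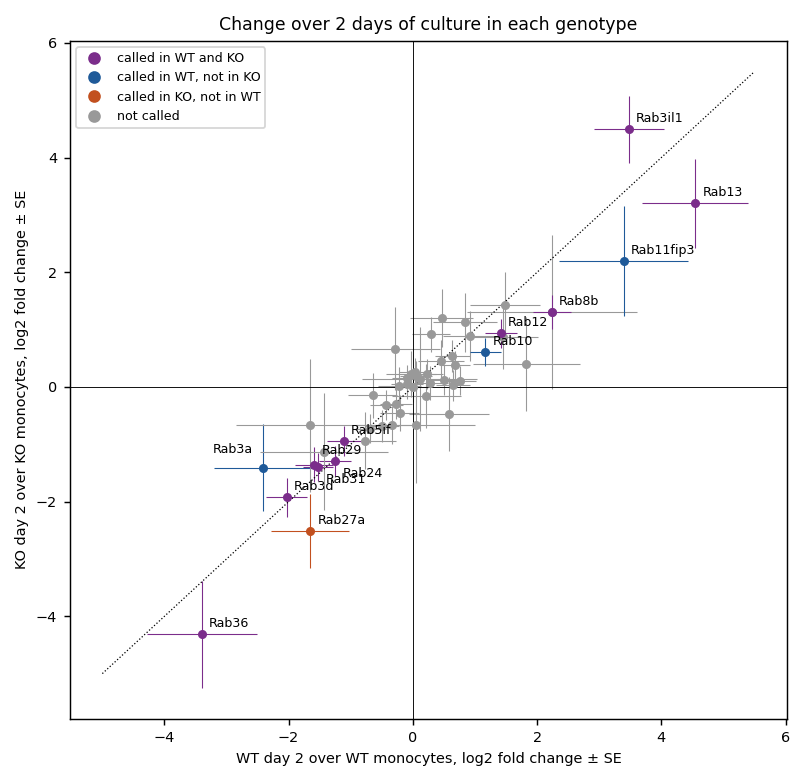
Log2 fold change from monocytes to day 2 in WT (horizontal) and KO cells (vertical), with SE bars, for the 52 tested members with reads in all 4 groups; the dotted line marks equal change. Purple members were called in both genotypes, each in the same direction, and Rab8b lies below the line at 2.24 and 1.30.

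No member passed the threshold between KO and WT at any stage, or in the difference between KO and WT in the change from monocytes. The edgeR test called 0 of 56 in monocytes, at day 1 and at day 2, beside 0%, 0% and 0.0998% of all genes, with 3, 1 and 3 members at an unadjusted p under 0.05. The 2 interactions called 0 beside 0% and 0.0285%, with 1 and 2 members at an unadjusted p under 0.05. DESeq2 called 0 members in these 5 comparisons, and the fit with no low-count filter called 1, Rab30, at day 2 and in both interactions. The median KO minus WT difference of the members at day 2 was 0.00, against 0.01 over all genes. Members whose 2 KO libraries lay beyond both WT libraries were 9 higher and 14 lower at day 2, 41.1% beside 38.3% of all genes (17.6% higher and 20.6% lower), so this share was near the background. The shares were 23.2% beside 24.2% in monocytes (13.3% higher and 10.9% lower) and 17.9% beside 19.4% at day 1 (10.3% higher and 9.06% lower).

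At day 2 the smallest p-values belonged to Rab30 and Rab8b. Rab30, at 19.6 and 13.2 CPM in WT and 1.67 and 0.409 in KO cells, gave -4.04 ± 1.18 (edgeR unadjusted p = 0.00809, adjusted p = 0.747). With no low-count filter the adjusted p was 0.0136, with DESeq2 0.0583 and with the block 0.306. Rab30 entered the filtered fits only through the WT day 2 libraries, the group in which it is high. For Rab8b, at 853 and 691 against 445 and 364 CPM, the difference was -0.93 ± 0.29 (edgeR adjusted p = 0.773). Its difference in the rise from monocytes was -0.94 ± 0.41 (edgeR adjusted p = 1, unadjusted p = 0.0456). Rab21 gave -0.77 ± 0.25 (edgeR adjusted p = 0.828), at 129 and 125 against 66.7 and 81.9 CPM, and Rab14 gave -0.51 ± 0.24. In all 4, both KO libraries were below both WT libraries. Of the other trans-Golgi members, Rab12 gave -0.43 ± 0.25, Rab10 -0.39 ± 0.24, Rab8a -0.27 ± 0.27 and Rab13 -0.03 ± 0.70, none called.

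**Figure D5:**
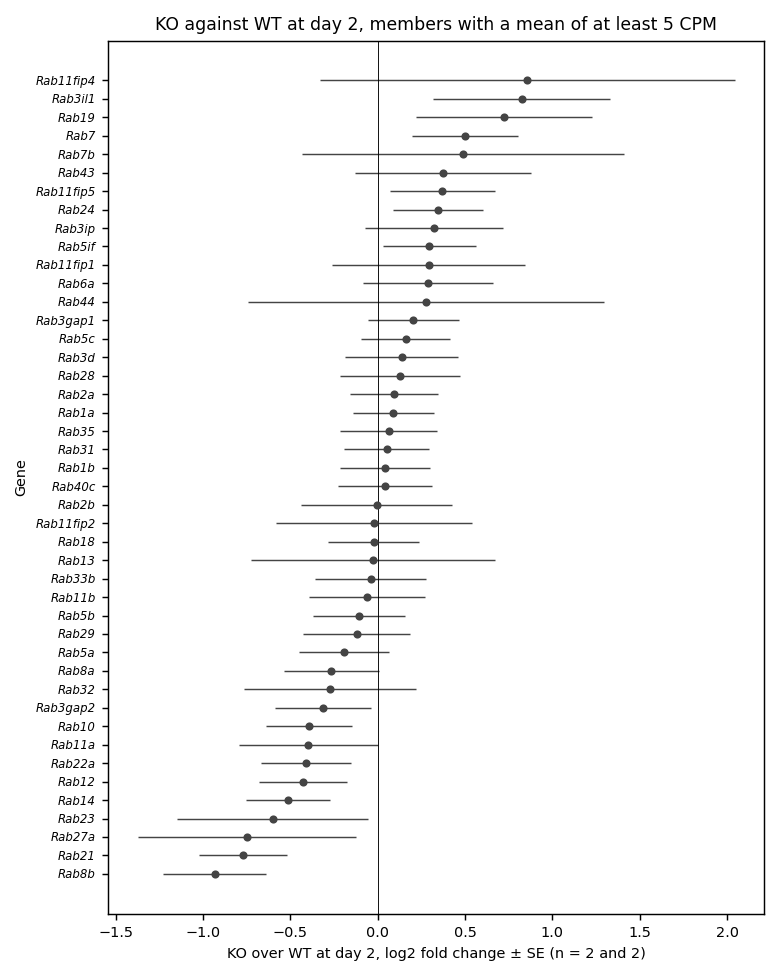
KO against WT at day 2 for the 44 tested members with a mean of at least 5 CPM, as log2 fold change with SE (n = 2 and 2), sorted. Values run from -0.93 (Rab8b) to 0.86 (Rab11fip4), and no member shown passed the threshold.

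In monocytes, Rab37 and Rab34 had the smallest p-values. Rab37 had 0 reads in WT and 13 in KO monocytes, and Rab34 0 and 10, too few for more than a listing (edgeR adjusted p = 0.998 for both). At day 1 they belonged to Rab30, with 9 reads in WT and 0 in KO cells, and Rab40c. Rab40c had 19.9 and 20.2 CPM in the WT cultures and 14.5 and 13.6 CPM in the KO cultures, a difference of -0.51 ± 0.27 (edgeR adjusted p = 1). Its monocyte values were 20.7 and 21.8 in WT and 17.7 and 22.7 in KO, and its day 2 values 15.5 and 16.1, and 17.3 and 15.2 CPM.

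Rab regulators that are no members were read from lists of named genes. At WT day 1, 4 of 37 exchange factors were higher and 3 lower, 2 and 2 of 33 TBC GAPs, and 2 and 3 of 33 tested effectors, beside 11.4% of all genes higher and 10.1% lower. At WT day 2 the counts were 8 and 5 for exchange factors, 10 and 1 for GAPs, and 10 and 1 for effectors, beside 12.7% of all genes higher and 9.89% lower. The day 2 medians of GAPs and effectors were 0.87 and 0.71 on the log2 scale in WT, against 0.09 over all genes. In WT monocytes replicate 2, which stood apart, most of the listed GAPs and effectors were lower than in replicate 1. Examples are Tbc1d9 (62.9, then 23.6 CPM), Tbc1d2b (178, then 63.7), Fyco1 (61.9, then 20.9) and Plekhm1 (109, then 45.5). The WT medians were taken against this reference. A minority were higher, such as Tbc1d15 (82.4, then 110 CPM) and Gcc2 (12.3, then 36.5). The effect of that library on the medians was not tested, and KO medians are not given here.

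Rabgap1l, a TBC GAP known to act on endosomal Rabs such as Rab22a, is described for its genotype difference at day 2. It had 40.2 and 57.5 CPM in WT monocytes, 6.85 and 9.22 at WT day 1 and 250.5 and 383 at WT day 2. KO cells had 28.4 and 21.9, 7.97 and 8.59, and 35.8 and 63.6 CPM. All 4 day 1 libraries lay below the other 8, and both WT day 2 libraries above the other 10. In WT it fell by 2.60 ± 0.37 at day 1 (edgeR adjusted p = 0.00128) and was 2.70 ± 0.37 above monocytes at day 2 (edgeR adjusted p = 0.000720). The KO minus WT difference at day 2 was -2.67 ± 0.37 (edgeR adjusted p = 0.0305). That call was lost in 8 of 12 fits that left out a library, for any of the day 2 libraries among them, and on the day 2 groups alone (adjusted p = 0.315). Other listed genes also had both KO libraries beyond both WT libraries at day 2, as 38.3% of all genes did. Fyco1 had 109 and 118 CPM in WT against 34.8 and 32.6 in KO cells, and Tbc1d9 129 and 117 against 218 and 177.

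Tbc1d16, a GAP for Rab4a, went from 1.53 and 0.105 CPM in WT monocytes to 46.99 and 15.9 at day 1 and 126 and 91.5 at day 2, a day 2 rise of 6.93 ± 0.83 (edgeR adjusted p = 0.000348). Tbc1d10c fell, from 13.5 and 12.8 CPM to 1.32 and 0.979 at WT day 1 (log2 fold change of -3.50 ± 0.60, edgeR adjusted p = 0.00300). Among exchange factors Ric1, for Rab6, rose by 2.94 ± 0.43 at WT day 2 (edgeR adjusted p = 0.00111) and Dennd1b, for Rab35, by 1.99 ± 0.31 (edgeR adjusted p = 0.00141). Of the effectors, Eea1, the Rab5 tether of early endosomes, rose by 1.59 ± 0.24 (edgeR adjusted p = 0.00122) and Micall1, a Rab8 and Rab35 effector of recycling tubules, by 2.84 ± 0.50 (edgeR adjusted p = 0.00294). Rilpl2 had 62.7 and 67.9 CPM in WT monocytes, 15.4 and 18.44 at day 1 and 55.2 and 49.2 at day 2, a day 1 log2 fold change of -1.95 ± 0.28 (edgeR adjusted p = 0.00118).

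Some members differed between the day 2 experiments in both genotypes, and they were chosen after their values were seen. Rab7b, of late endosome to Golgi traffic, had 37.1 and 47.9 CPM in the WT and KO libraries of replicate 1 and 4.81 and 11.698 in those of replicate 2. Rab44, a large Rab of immune cells, had 4.49 and 7.17 CPM in replicate 1 and 33.8 and 38.4 in replicate 2. Rab32, at 155 and 123 against 53.4 and 49.5 CPM, split the same way as Rab7b. Earlier, Rab7b had 18.8 to 27.0 CPM in monocytes and 42.2 to 68.2 at day 1, except 12.6 in the library labelled KO day 1 replicate 1. Rab44 had 29.95 to 72.9 CPM in monocytes and 18.8 to 39.9 at day 1, except 130 in that library. Neither gene was called in any comparison, while Rab7b passed between the WT days with the block (-1.92 ± 0.55, edgeR adjusted p = 0.0456).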

How the data were processed

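The 12 poly(A) libraries came from a stranded kit (20 ng RNA input, 16 cycles of PCR), per the labels' protocols. The tools were Trimmomatic 0.35 and STAR 2.5.1b with GRCm38, per the submitters' processing notes. No source names the authors' annotation release. They deposited raw counts for each gene, unnormalized and in STAR's layout, of which column 4 (reverse strand) was used. Lines naming no gene stayed out of library sizes (unmapped 2.65% to 7.91%, multimapping 5.29% to 8.94%, outside genes 5.24% to 11.2%, ambiguous 1.34% to 1.76%). Multimapping reads were not counted, so near-identical paralogs may be undercounted. No 2 libraries agreed within sampling noise (smallest chi-square per degree of freedom 9.86, over genes of 20 or more summed reads).

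Symbols and roles came from GENCODE M21 and general knowledge, and upstream sequences from RefSeq. edgeR 4.0.16 in R 4.3.3 fitted 1 mean per group over all 12 libraries after filterByExpr and TMM, with robust quasi-likelihood tests and 6 residual degrees of freedom. There were 9 comparisons and 2 interactions, two-sided, with Benjamini-Hochberg adjustment over 14034 genes; the script was tested on simulated data. Folds against groups at 0 used 3 reads over the group.

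Values in every library are given for up to 5 largest called rises and falls per WT day with a mean of at least 5 CPM, for called or else the 2 lowest-p members per genotype comparison, for the 3 highest members per kb never called, and for up to 3 regulators per list; exceptions are stated, and 2 regulators and the prenylation list are not reported here. The members and lists were chosen with earlier results of these data known.

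Going by dates in file names, same-numbered libraries within a stage came from 1 experiment. Their deviations from the group means correlated across genes at 0.236 (monocytes), 0.194 (day 1) and 0.657 (day 2), so the numbers were taken to pair KO and WT. The block had 1 term shared by monocytes and day 1, and another for day 2. It thus also tied same-numbered monocyte and day 1 libraries, whose deviations correlated at 0.276 in WT and 0.128 in KO cells. Blocked values are given where they change a call. File names give 16 hours for replicate 2 of day 1, labelled 1 day. Alternatives were RLE normalization, no low-count filter, the block, DESeq2 1.42.0, the compared groups only and leaving out each library. Omitting at once the 2 libraries that stood apart (KO day 1 replicate 1, by its label, and replicate 2 of WT monocytes) was chosen after seeing the data. Where a group then has 1 library, it is assumed to vary like the other groups.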

Additional observations from a re-analysis of the deposited data

How the results depend on the processing

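Counts of called members, out of 56, moved by more than 1.5 times in these settings. At WT day 1 against monocytes (9 called) they were 16 with no low-count filter, 19 with the replicate block by experiment and 17 with DESeq2. At WT day 2 (15) the count was 9 on the compared groups only. Between the WT days (6) it was 10 with the block, 12 with DESeq2 and 11 without both libraries that stood apart. At KO day 1 (4) it was 8 with the block, 8 with DESeq2 and 7 without both libraries, and at KO day 2 (11) it was 17 with DESeq2. Between the KO days (1) it was 5 with no filter, 3 with the block, 5 with DESeq2 and 0 on the compared groups only. With no filter, KO against WT at day 2 and both interactions (0) gave 1 each, Rab30. Leaving out 1 library at a time gave 5 to 17, 9 to 20 and 0 to 9 in the 3 WT comparisons, 1 to 7, 4 to 14 and 0 to 2 in the 3 KO ones, and 0 to 0 in the 5 genotype comparisons. Calls over all genes moved too, and rose with the block and with DESeq2 in each of the 6 culture comparisons. At WT day 1, DESeq2 called 2060 higher and 2012 lower of 14034, against 1598 and 1424 as reported. On the compared groups only, WT day 2 gave 896 higher and 669 lower of 12412, against 1778 and 1388. The cause of these shifts was not tested, except that fewer samples enter the fits on compared groups and those that leave libraries out. Rab1b at WT day 1 changed sign around 0 (-0.01 as reported): leave-one-out values ran from -0.121 to 0.110, positive at 0.110 (WT monocytes), 0.0886 (WT day 1), 0.00108 (KO day 1), 0.000474 (KO monocytes), 0.000505 (WT day 2) and 0.000308 (KO day 2), each with replicate 2 of that group left out, and at 0.110 with both libraries that stood apart left out. Of the WT calls, 4 of 9 at day 1 (Rab3il1, Rab31, Rab29, Rab27a) and 8 of 15 at day 2 (Rab8b, Rab31, Rab3il1, Rab3d, Rab12, Rab13, Rab29, Rab30) held in all 12 fits that left out a library, and of the KO calls 1 of 4 and 3 of 11. On the compared groups only, Rab10, Rab24, Rab5if and Rab29 at WT day 2 had adjusted p = 0.0936, 0.0584, 0.0933 and 0.0507 (edgeR). RLE normalization changed 1 of 81 named calls, Rab3a. The paired fit with the replicate block ended no member's call and added 30 over the 6 culture comparisons, each given beside its gene; of the 81 named results it changed 1, Rab5c at WT day 2. At this depth the 9 untested GTPases had at most 35 reads, and with 2 libraries a group small differences are not detectable.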

Other observations

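Rab9, on chromosome X and so outside the rule, encodes a Rab of late endosome to Golgi recycling. It had 43.2 and 60.4 CPM in WT monocytes, 12.1 and 19.2 at WT day 1 and 50.03 and 40.6 at WT day 2. KO cells had 41.9 and 38.5, 15.6 and 25.9, and 31.2 and 32.1 CPM. All 4 day 1 libraries lay below the other 8. The WT log2 fold change was -1.73 ± 0.34 at day 1 (edgeR adjusted p = 0.00625) and 1.53 ± 0.34 from day 1 to day 2 (edgeR adjusted p = 0.0235), and neither step was called in KO cells. The difference between the genotypes in the day 1 step was not called. The other X-linked matches were Rab33a, at 0 to 2.33 CPM, Rab39b, at 0 to 0.167 CPM, and Rab9b, with 0 reads. The antisense transcript Rab10os, which overlaps Rab10, ran from 10.9 to 26.7 CPM and was called in no comparison, and Rab26os from 0.632 to 2.21 CPM.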
